A study of Homo sapiens with 4 samples.

Results

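The BH3-only genes encode the sentinel arm of the BCL2 family, and 10 of them were followed here in RD cells before and after selection for vincristine resistance: BCL2L11, BBC3, PMAIP1, BAD, BID, BIK, BMF, HRK, BNIP3 and BNIP3L. They were taken by symbol from the deposited table, where all 10 were found among 18375 genes. RD is an established cell line of fusion-negative rhabdomyosarcoma, a tumour of skeletal muscle lineage. The series holds 2 libraries of untreated parental cells and 2 libraries of resistant cells, all labelled as wild type. Vincristine, a vinca alkaloid, blocks microtubule assembly and stops cells in mitosis. Resistance was built up from a first dose of 1 to 1.5 nM that killed 80 to 90% of the cells, followed by dose steps of 10 to 20% for 9 to 12 months, until the half-maximal inhibitory concentration was at least 100-fold higher. Whether the resistant cells were harvested in the presence of drug, and whether replicates came from separate cultures or selections, is not stated in the labels. The p-values therefore reflect just the variation among these libraries, which could be technical.

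A BH3-only protein carries a short amphipathic helix, the BH3 segment, that fits into a groove on the anti-apoptotic proteins BCL2, BCL-xL (gene BCL2L1), BCL-w (BCL2L2) and MCL1. Once that groove is filled, the effectors BAX and BAK1 are free to open the outer mitochondrial membrane. BIM (gene BCL2L11) and PUMA (BBC3) bind every anti-apoptotic partner, NOXA (PMAIP1) prefers MCL1, BAD prefers BCL2, BCL-xL and BCL-w, and harakiri (HRK) prefers BCL-xL. BNIP3 and NIX (BNIP3L) have an atypical segment and are best known as receptors that mark mitochondria for autophagy.

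The segment that gives the family its name is shown as coding sequence, because it is what the members share while their transcript levels went different ways. Each stretch of 27 bases was read from a principal GENCODE 29 transcript (GRCh38) by finding a leucine codon followed after 3 codons by a glycine, alanine or serine codon and then an aspartate codon. Those 3 codons are in capitals, 5′ to 3′.
BCL2L11: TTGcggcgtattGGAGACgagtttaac
BBC3: CTGcggcggatgGCGGACgacctcaac
PMAIP1: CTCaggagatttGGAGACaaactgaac
BAD: CTCcggaggatgAGTGACgagtttgtg
BID: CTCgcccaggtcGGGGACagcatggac
BIK: CTGgcctgcatcGGGGACgagatggac
BMF: CTTcagtgcattGCAGACcagttccac
HRK: CTCaaggcgctaGGCGACgagctgcac
BNIP3: TTGaagaaaaacTCAGATtggatatgg
The pattern occurred once in the transcript of every gene shown except BID, where it occurred 2 times, and the BH3 segment is the one that starts at codon 136 of 241. Glycine codons fill the variable position in BCL2L11, PMAIP1, BID, BIK and HRK, alanine codons in BBC3 and BMF, and serine codons in BAD and BNIP3. The BNIP3L transcript also holds the pattern once, at codon 134 of 219, and its stretch is not shown. BNIP3 alone among the 9 shown has GAT as the aspartate codon.

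All 10 genes passed the filter on low values, with 10 normalized counts or more in every library. A call alone says little here, since 66.9% of the 18330 genes tested passed limma's test at an adjusted p below 0.05 (Benjamini-Hochberg over all genes), 32.7% as higher and 34.2% as lower in resistant cells. Against that background 7 of the 10 BH3-only genes were called higher and 3 lower, as they were by edgeR, which called 67.5% of all genes. The median log2 fold change of the 10 was 0.35, beside 0.00 over all genes tested. The 2 libraries of one group did not overlap with those of the other for any of the 10, which also held for 82.1% of all genes. Fold changes are resistant over parental on the scale log2(normalized count + 1), errors are SD with n = 2 libraries a group, and in bulk RNA fewer cells with a transcript and less transcript per cell cannot be told apart.

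**Figure D1:**
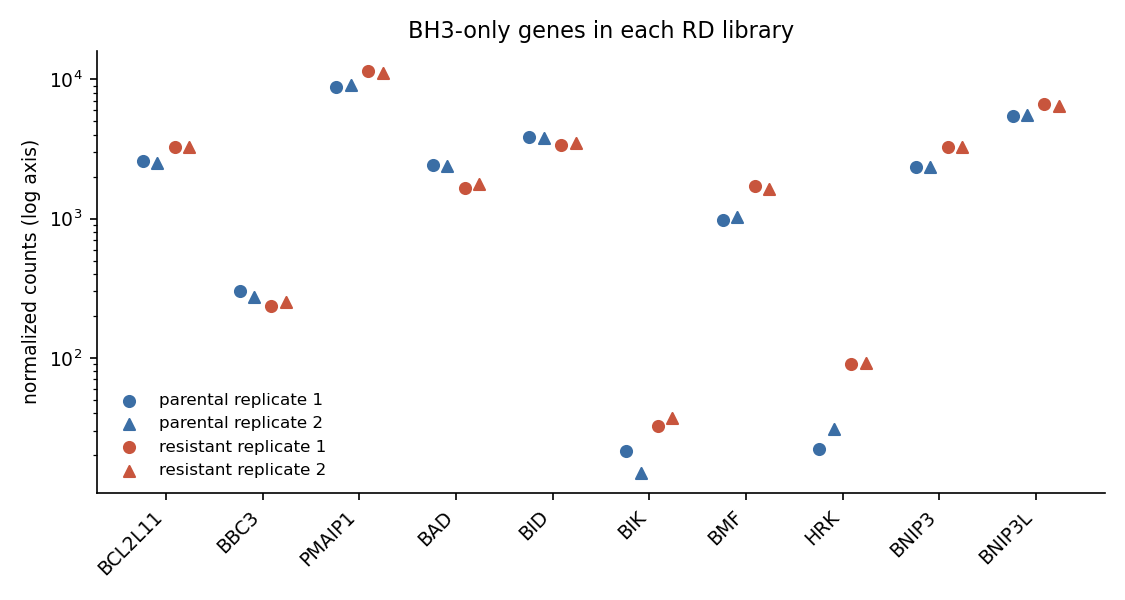
Normalized counts (log axis) of the 10 BH3-only genes in the 2 parental libraries (blue) and the 2 resistant libraries (red), with circles for replicate 1 and triangles for replicate 2. PMAIP1 is the most abundant in every library, and HRK and BIK lie below 100; the red and blue points are apart for each gene, most widely for HRK.

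BMF and HRK showed the clearest increases among the genes that bind anti-apoptotic proteins. BMF encodes a protein held at the actin and myosin motor cytoskeleton through dynein light chain 2 until cells are stressed or detach. It had 978 and 1033 normalized counts in the parental libraries against 1708 and 1643 in the resistant ones. Both resistant libraries were thus well above both parental ones, a log2 fold change of 0.74 (SE 0.05, limma adjusted p = 3.69e-12). The antisense gene BMF-AS1 covers 8.46% of the exonic bases of BMF. HRK, the harakiri gene, is best known from neurons deprived of growth factor. Its normalized counts were 22.2 and 30.8 in the parental libraries, against 90.9 and 91.6 in resistant cells. The groups were far apart at a low level, with a log2 fold change of 1.76 (SE 0.24, limma adjusted p = 2.54e-07), and the read ratio was 3.45 with an exact 95% counting interval of 2.53 to 4.77 from 54 parental and 180 resistant reads. HRK stood at the 96.0th percentile of log2 fold change among all genes and BMF at the 86.7th.

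BCL2L11 and PMAIP1, the genes of BIM and NOXA, rose by smaller amounts. BCL2L11 had 2575 and 2503 normalized counts in the parental libraries, against 3287 and 3246 after selection. The lowest resistant library exceeded the highest parental one, and the log2 fold change was 0.36 (SE 0.04, limma adjusted p = 1.41e-08). PMAIP1 had 8826 and 9053 in parental cells against 11533 and 11069 in resistant cells. Its log2 fold change was 0.34 (SE 0.03, limma adjusted p = 5.92e-10), and both changes are of ordinary size in this comparison, at the 74.2nd and 73.0th percentiles of all genes. An antisense-strand transcript of MIR4435-2HG covers 10.9% of the exonic bases of BCL2L11, and no strand setting is given for the counting. MIR4435-2HG itself was lower in resistant cells, with a log2 fold change of -0.16 (SE 0.04).

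BIK encodes a BH3-only protein of the endoplasmic reticulum. Its normalized counts were 21.3 and 14.9 before and 32.5 and 37.2 after selection, resting on 37 parental and 69 resistant reads. The groups did not overlap, the log2 fold change was 0.93 (SE 0.32, limma adjusted p = 0.0126), and the exact 95% counting interval of the read ratio, 1.93, ran from 1.28 to 2.96. The call was lost when parental replicate 2 was left out (0.68, p adjusted by limma = 0.0951), when resistant replicate 2 was (0.83, p adjusted by limma = 0.0794), against 1.2-fold (limma treat adjusted p = 0.0639) and under DESeq2, which called 56.7% of all genes (DESeq2 adjusted p = 0.113). In the authors' deposited table, where 56.6% of all genes pass, BIK has an adjusted p of 0.114.

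BAD had the largest decrease of the 10. The BAD protein is kept inactive by phosphorylation and by 14-3-3 proteins as long as growth factor signals persist. Its normalized counts were 2448 and 2399.9 before and 1666 and 1784 after selection. Both resistant libraries were below both parental ones, with a log2 fold change of -0.49 (SE 0.05, limma adjusted p = 7.09e-10). GPR137, on the opposite strand, shares 23.7% of the exonic bases of BAD, and no strand setting is given for the counting. How far this overlap affects the count of BAD was not tested. GPR137 itself had a log2 fold change of -0.11 (SE 0.05, called lower).

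BID, which death receptor signalling turns on through cleavage by caspase-8, fell by a smaller amount. It had 3879 and 3802 normalized counts before and 3383 and 3473 after selection. Both resistant libraries were lower than both parental ones. The log2 fold change was -0.16 (SE 0.04, limma adjusted p = 0.000576), and BID did not pass when a change above 1.2-fold was required (limma treat adjusted p = 1.00) or when edgeR was given a dispersion of 0.01, an assumed spread between cultures (adjusted p = 0.392).

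BBC3, the gene of PUMA, was close to the threshold. It had 302 and 275 normalized counts before and 237 and 251 after selection, so the groups were apart by a narrow margin. Its log2 fold change was -0.24 with a 95% interval of -0.46 to -0.02, and it passed with a limma adjusted p of 0.0495. The call was lost in 11 of 16 alternative analyses, among them equal library totals (-0.21, limma adjusted p = 0.0885), DESeq2 (adjusted p = 0.211) and the fits that lacked parental replicate 1 (-0.17, p adjusted by limma = 0.307), parental replicate 2 (-0.31, 0.0612) and resistant replicate 1 (-0.20, 0.154). The authors' deposited table gives BBC3 an adjusted p of 0.211.

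The mitophagy receptor genes were both higher in resistant cells. BNIP3, which is induced in hypoxia, had 2338 and 2365 normalized counts before and 3260.3 and 3261 after selection, a log2 fold change of 0.47 (SE 0.04, limma adjusted p = 1.03e-10). BNIP3L had 5421 and 5531 before and 6686 and 6489.7 after selection, a log2 fold change of 0.27 (SE 0.03, limma adjusted p = 1.63e-07). The resistant libraries were above the parental ones for both genes. BNIP3L did not pass with a change above 1.2-fold required (limma treat adjusted p = 0.792) or under that fixed dispersion (edgeR adjusted p = 0.125). Under the treat test 37.1% of all genes passed, and under the fixed dispersion 43.3%.

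**Figure D2:**
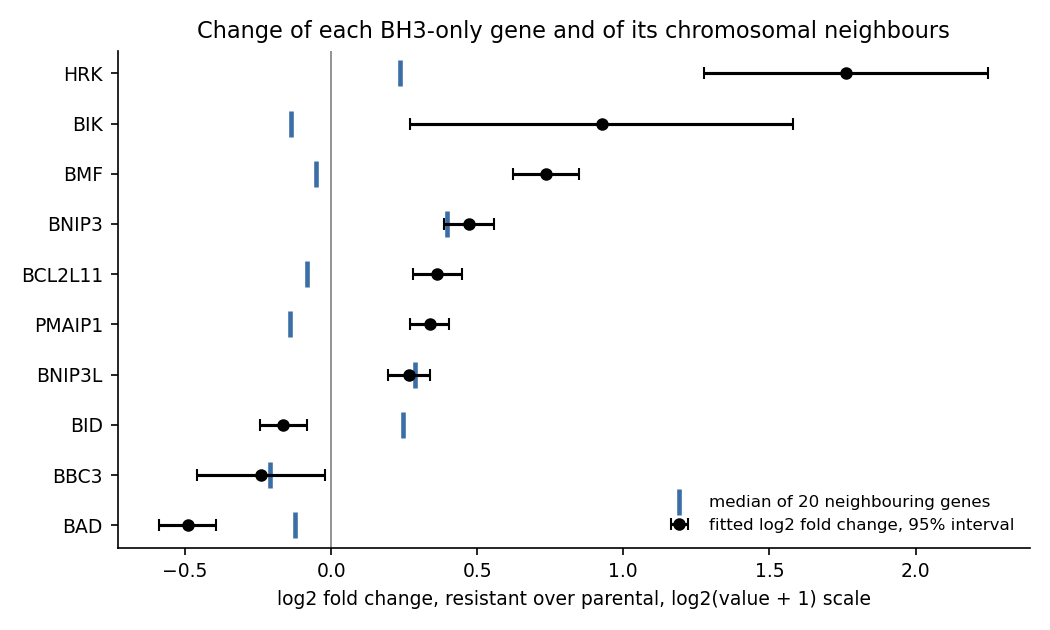
Fitted log2 fold change of each BH3-only gene (black points, with 95% intervals) and the median log2 fold change of its 20 nearest tested genes (blue ticks). The intervals of HRK, BMF, BCL2L11, PMAIP1, BAD and BID exclude their neighbours' medians, and so does that of BIK, whereas those of BNIP3, BNIP3L and BBC3 contain them.

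Per kilobase of annotated exon, the 10 transcripts covered a wide range of levels in a nearly fixed order. PMAIP1 had 3999.7 ± 71.7 normalized counts per kilobase in parental and 5056 ± 147 in resistant cells, which was 45.7 and 46.5% of the summed level of the 10 genes in the parental libraries and 51.7 and 50.4% in the resistant ones. BAD followed in parental cells (1419 ± 19.9) and then BNIP3L (1271 ± 18.1). In resistant cells these 2 exchanged places, with 1529.6 ± 32.3 for BNIP3L and 1010.1 ± 48.7 for BAD, the one change of order that was seen in both libraries of a group. BID, BNIP3, BCL2L11, BMF, BBC3, BIK and HRK came next in that order in all 4 libraries. No neighbours in the order overlapped in their libraries' values. BIK (22.3 and 15.6, then 34.1 and 39.1) and HRK (3.87 ± 0.885, then 13.3 ± 0.0761) stayed at the low end, so the large fold change of HRK concerned 0.0376 to 0.136% of the summed level.

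The members lie on separate chromosomes apart from BID and BIK. In GRCh38 with GENCODE 29, BCL2L11 (ENSG00000153094) lies on chromosome 2 from 111119378 to 111168447, PMAIP1 (ENSG00000141682) on chromosome 18 from 59899948 to 59904306, and BMF (ENSG00000104081) on chromosome 15 from 40087890 to 40108892. HRK (ENSG00000135116) lies on chromosome 12 from 116856144 to 116881441, BBC3 (ENSG00000105327) on chromosome 19 from 47220822 to 47232766 and BAD (ENSG00000002330) on chromosome 11 from 64269830 to 64284704. BID (ENSG00000015475) and BIK (ENSG00000100290) are on chromosome 22, from 17734138 to 17774770 and from 43110748 to 43129712. BNIP3 (ENSG00000176171) lies on chromosome 10 from 131966455 to 131982013 and BNIP3L (ENSG00000104765) on chromosome 8 from 26382898 to 26505636. All 10 are protein-coding genes.

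The median change of the neighbouring genes lay close to that of some members and far from that of others. Each member was set beside its 20 nearest tested genes, 10 on each side. Around BNIP3, 19 of 20 neighbours had a log2 fold change above 0 and their median was 0.40; PPP2R2D (0.46) and JAKMIP3 (1.59) on either side were called higher. With that median subtracted BNIP3 was left with 0.07 and no longer passed (limma adjusted p = 0.125). The neighbours of BNIP3L were mixed: 13 of 20 were above 0, 10 were called higher and 5 lower, and the median was 0.29. Beside BNIP3L lay SDAD1P1 (0.54, called higher) and PNMA2 (0.06, not past the threshold). Both overlap BNIP3L on the opposite strand, SDAD1P1 over 1.30% and PNMA2 over 7.66% of its exonic bases. With the median subtracted BNIP3L came to -0.02 (limma adjusted p = 0.648). Of the 20 neighbours of BBC3, 6 were above 0, 3 were called higher and 11 lower, and the median was -0.21. BBC3 lies between SAE1 (-0.10) and CCDC9 (-0.73), both called lower. With the median subtracted BBC3 came to -0.03 (limma adjusted p = 0.815). Over all genes tested 32.7% were called higher and 34.2% lower. Among their 20 neighbours BNIP3 exceeded 13, BNIP3L 10 and BBC3 9, so each of the 3 lay between its neighbours' quartiles. The p-values of this comparison take the neighbour median as known, and 64.7% of the 17759 genes with a position passed.

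The other 7 members kept their calls with the neighbour median removed, though they differed in how far they stood from single neighbours. BMF was above all 20 of its neighbours, whose median was -0.05, with SRP14-AS1 (0.29, not past the threshold) and BUB1B (0.48, called higher) at its sides. HRK and BIK were each above 19 of 20. The neighbour medians were 0.24 for HRK, between RNFT2 (-0.02, not past the threshold) and FBXW8 (0.70, called higher), and -0.14 for BIK, between TTLL1 (-0.15, not past the threshold) and MCAT (-0.12, called lower). BCL2L11 exceeded 16 of 20 neighbours, with MIR4435-2HG and AC108463.2 (0.49, called higher) nearest, and PMAIP1, at the upper quartile of its neighbours (0.34), exceeded 15, with CCBE1 (1.45, called higher) and MC4R (-0.87, called lower) nearest. With the neighbour median removed their values rose to 0.45 (limma adjusted p = 3.41e-10) and 0.48 (limma adjusted p = 6.72e-13). BAD was below 19 of 20, among them PLCB3 (0.14, called higher) and GPR137 at its sides, and had -0.37 once the median of -0.12 was removed. BID went against its neighbourhood, since its neighbours had a median of 0.25, with BCL2L13 (0.05) and MICAL3 (0.01) at its sides not past the threshold, and its value became -0.41 (limma adjusted p = 5.86e-10).

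**Figure D3:**
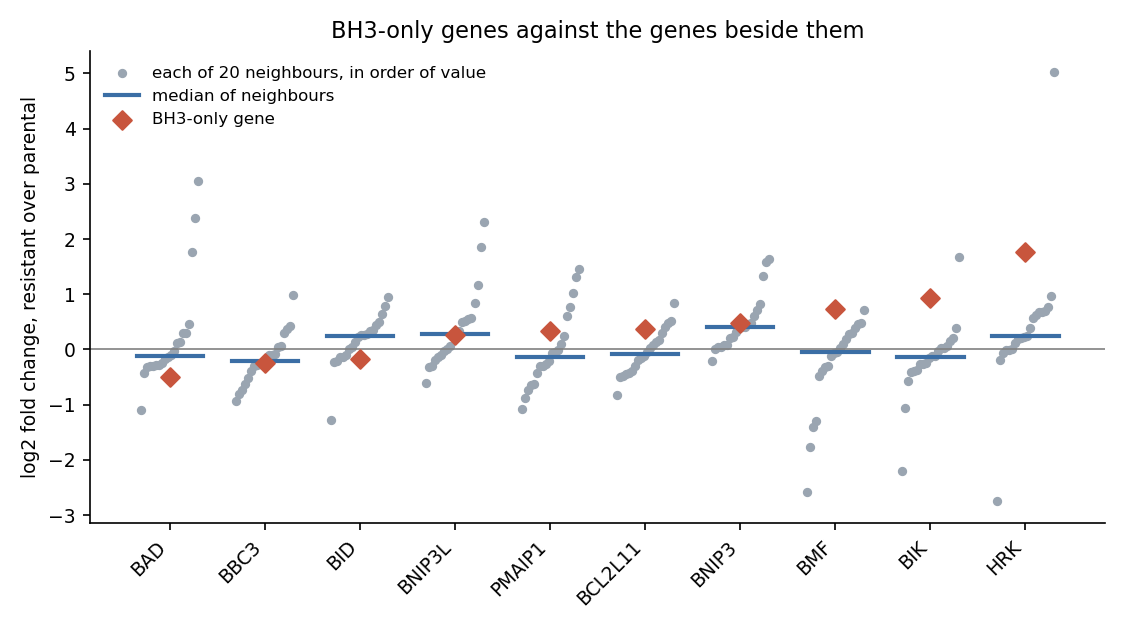
Log2 fold change of each BH3-only gene (red diamonds), of its 20 nearest tested genes sorted by value (grey points) and their median (blue lines). BMF lies above all 20 neighbours, HRK and BIK above 19, and BAD below 19, while BNIP3, BNIP3L and BBC3 lie close to the blue lines.

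A group of 5 genes kept direction and call in each of the 16 alternative analyses: BCL2L11, PMAIP1, BMF and HRK as higher and BAD as lower. The range of log2 fold change over those alternatives was 0.34 to 0.45 for BCL2L11, 0.31 to 0.48 for PMAIP1, 0.70 to 0.79 for BMF, 1.48 to 1.99 for HRK and -0.54 to -0.37 for BAD. BCL2L11 and PMAIP1 passed narrowly against 1.2-fold (limma treat adjusted p = 0.0313 and 0.0403). So they did with the fixed dispersion (edgeR adjusted p = 0.0318 and 0.0446). The share of all genes that kept their calls in every alternative is not reported here.

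Transcripts of the proteins that BH3-only proteins bind were measured in the same libraries. None of the 4 anti-apoptotic genes in the table was called higher and 3 were called lower, beside 34.2% of all genes tested. BCL2L1 had 10886 and 10700.0 normalized counts before and 5878 and 5924 after selection (log2 fold change -0.87, SE 0.03), although the antisense gene ABALON covers 43.0% of its exonic bases. BCL2 fell from 680.2 ± 41.8 to 321.5 ± 12.4 (-1.08, SE 0.08). MCL1 was lower by -0.18 (SE 0.03) and lost its call against 1.2-fold and with the fixed dispersion (edgeR adjusted p = 0.348), and BCL2L2 did not pass (-0.03, 95% interval -0.12 to 0.07), except with its neighbour median removed (-0.21, limma adjusted p = 0.000213), when 4 of the 4 were lower. BCL2A1 and BCL2L10 are not among the genes of the table and were not analysed here. The effectors were lower too, all 3 of 3: BOK by -1.03 (SE 0.04), BAK1 by -0.50 (SE 0.05) and BAX by -0.48 (SE 0.04). With its neighbour median of -0.40 removed BAX no longer passed (-0.09, limma adjusted p = 0.0609).

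Set against the anti-apoptotic genes, the summed BH3-only transcripts were higher in both resistant libraries, although their sum itself was higher only with PMAIP1 included. The summed level per kilobase of the 8 members other than BNIP3 and BNIP3L was 6941 and 6983 in parental and 7826 and 7699 in resistant libraries. Without PMAIP1, a sum taken after the values were seen, the other 7 came to 2992 and 2932 in parental and 2666 and 2746 in resistant libraries. The sum of the 4 anti-apoptotic genes was 8405 and 8314 in parental and 6362 and 6301 in resistant libraries. The ratio of these sums was 0.826 and 0.840 in parental cells against 1.23 and 1.22 in resistant cells, and without PMAIP1 it was 0.356 and 0.353 against 0.419 and 0.436. BCL2L11 over BCL2L1 went from 0.118 and 0.116 to 0.278 and 0.273, and BMF over BCL2L1 from 0.0547 and 0.0587 to 0.177 and 0.169. PMAIP1 over MCL1, the pair that NOXA is known for, went from 0.885 and 0.911 to 1.29 and 1.27. BAD over BCL2L1 was 0.436 and 0.435 in parental and 0.550 and 0.584 in resistant cells; BAD fell, and BCL2L1 fell by more. Over the sum of the 4 anti-apoptotic genes BAD was lower, at 0.171 and 0.169 in parental and 0.153 and 0.166 in resistant cells. With 2 libraries against 2 the exact two-sided permutation test cannot go below p = 0.333, which is the value of the ratios of the 8-member sum and of the gene pairs; the ratios without PMAIP1 and of BAD over the sum were not tested. They describe transcripts, not proteins.

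**Figure D4:**
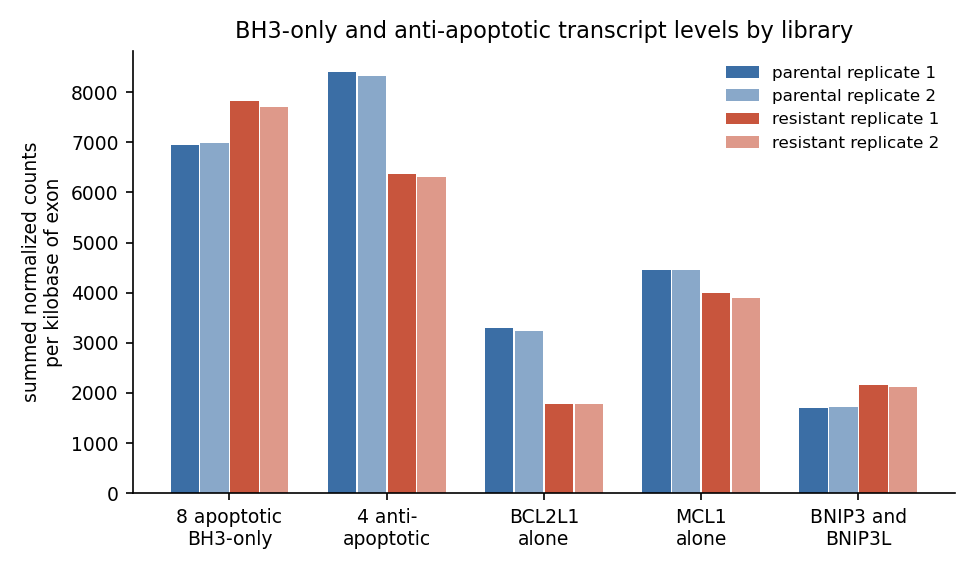
Summed normalized counts per kilobase of exon in each library, for the 8 BH3-only genes other than BNIP3 and BNIP3L, the 4 anti-apoptotic genes, BCL2L1 and MCL1 alone, and BNIP3 with BNIP3L; blue bars are parental and red bars resistant libraries, paler for replicate 2. The BH3-only sum is below the anti-apoptotic sum in both parental libraries and above it in both resistant libraries. Without PMAIP1, which the bars include, the sum of the other 7 genes is below the anti-apoptotic sum in every library.

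Promoter stretches are shown for the 3 higher members whose regulators in the list below are well known from textbooks: FOXO factors for BCL2L11, ATF and CREB factors for PMAIP1, and hypoxia-inducible factor for BNIP3. RefSeq promoters (GRCh38.p14) were matched by symbol for 8 of the 10 members, and the 250 bases before each start were searched on both strands. Capitals mark the matched motif.
BCL2L11: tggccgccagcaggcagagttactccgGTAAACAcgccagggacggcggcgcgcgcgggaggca
PMAIP1: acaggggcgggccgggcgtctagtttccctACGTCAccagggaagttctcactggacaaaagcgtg
BNIP3: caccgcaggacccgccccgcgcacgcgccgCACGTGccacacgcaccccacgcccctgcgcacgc
The first lies at chr2:111120664-111120727 on the plus strand and holds GTAAACA, the letters of a FOXO site, from 223 bases before the RefSeq start. That stretch is inside the GENCODE span of BCL2L11, which begins at 111119378, so the RefSeq start used here lies downstream of the GENCODE one. Of the 35116 RefSeq promoters, 2.98% hold GTAAACA. The second lies at chr18:59899910-59899975 on the plus strand with ACGTCA, a cAMP response element core, from 56 bases before the RefSeq start. It runs past the GENCODE start of PMAIP1 at 59899948, and 7.10% of promoters hold ACGTCA. The third lies at chr10:131982023-131982087 on the minus strand with ACGTG on both strands from 134 bases before the start, overlapping as the E-box CACGTG; 18.5% of promoters hold ACGTG and 6.34% CACGTG. BAD, which fell, holds ACGTCA in both of its 2 promoter entries, BBC3 holds CACGTG, and BID holds it in 2 of 5 entries. HRK and BMF, which rose, hold none of the motifs named above in any of their entries. The GC box GGGCGG was searched too, and 42.6% of promoters hold it. It occurs in an entry of HRK, BMF, BCL2L11, PMAIP1, BNIP3, BAD and BID, but not in that of BBC3. BIK and BNIP3L had no promoter entry and were not searched. A match is a description of letters, not a measured binding site.

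Transcription factors known to act on BH3-only genes moved both ways, with 6 of 13 called higher, 5 lower and 2 not past the threshold. Those shares, 46.2% and 38.5%, stand beside 32.7% higher and 34.2% lower over all genes tested. The median of these factors was 0.27, which is the value of TP73. That gene was not past the threshold, at 20.5 parental and 24.8 resistant normalized counts. The median was 0.17 with a minimum of 50 and 0.19 with a pseudocount of 10. It was 0.09 without parental replicate 2 and 0.09 with neighbour medians removed. The 4 with the smallest adjusted p were EPAS1, the gene of HIF-2 alpha, which rose from 752.8 ± 44.6 to 2693 ± 60.7 normalized counts (1.84, SE 0.05), FOXO1 (1.17, SE 0.07), MYC (0.45, SE 0.03) and JUN (-0.48, SE 0.04). MYC came to 0.089 with its neighbour median of 0.36 removed. Named after their values were seen, FOXO3 was higher (0.30, SE 0.04), and FOXO4 (-0.14, SE 0.05) and ATF4 (-0.23, SE 0.03) were lower. FOXO3, FOXO4 and ATF4 all lost their calls against 1.2-fold and with the fixed dispersion, and FOXO4 lost its call under DESeq2 too. HIF1A did not pass (0.06, SE 0.03), though it did without resistant replicate 2 (0.11, limma adjusted p = 2.84e-05) and with equal library totals (0.10, limma adjusted p = 0.0159). The count of lower factors was 3 in place of 5 with equal library totals, under DESeq2, and without parental replicate 1 or parental replicate 2. Against 1.2-fold, and with the fixed dispersion, 3 were higher and 1 lower.

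Targets of hypoxia-inducible factor outside the family did not move as a block. Of 14 measured, 4 were higher, 4 lower and 6 not past the threshold (median 0.00). That is 28.6% in each direction, beside 32.7% higher and 34.2% lower over all genes tested. EGLN3, an oxygen-sensing prolyl hydroxylase, rose from 39.1 ± 10.3 to 971.9 ± 15.1 (4.62, SE 0.14) and NDRG1 by 0.72 (SE 0.04), whereas VEGFA (-1.37, SE 0.05) and LDHA (-0.49, SE 0.03) fell. With neighbour medians removed the hypoxia list had 7 higher and 7 lower.

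Among proteins that hold, cleave, phosphorylate or bind BH3-only proteins, 14 of 24 genes were called lower and 5 higher (median -0.23). The lower share was 58.3%, beside 34.2% of all genes tested, and the higher share 20.8%, beside 32.7%. PPP3CA, a catalytic subunit of the phosphatase calcineurin that dephosphorylates BAD, fell from 14386 ± 42.9 to 6518 ± 163 (-1.14, SE 0.03). The 14-3-3 genes YWHAE (-0.55, SE 0.03), YWHAB (-0.50, SE 0.03) and YWHAZ (-0.49, SE 0.03), whose proteins sequester BAD, fell. Of the other 14-3-3 genes, named after their values were seen, YWHAQ (-0.47), YWHAG (-0.28) and YWHAH (-0.15) were called lower and SFN higher (0.79, limma adjusted p = 0.0371). YWHAG and YWHAH did not pass against 1.2-fold, and SFN lost its call in 5 of 15 alternatives. With its neighbour median of -0.57 removed YWHAE was at 0.02 and no longer passed, and YWHAZ came to -0.14, YWHAB to -0.31. The count of higher genes was 3 under DESeq2 and without parental replicate 2, and 2 without parental replicate 1.

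Around BNIP3 and BNIP3L, the 20 mitophagy receptors, ligands and turnover factors split evenly, with 4 higher, 4 lower and 12 not past the threshold. Their median was -0.04, and both shares were 20.0%, beside 32.7% higher and 34.2% lower over all genes tested. The receptor genes OPTN (-1.45, SE 0.05) and FKBP8 (-0.53, SE 0.03) fell, and NIPSNAP1 (0.99, SE 0.04) and the ATG8-type ligand GABARAPL1 (0.49, SE 0.03) rose. With neighbour medians removed OPTN came to -0.59, FKBP8 to -0.28 and GABARAPL1 to 0.089, all still called. With neighbour medians removed 10 of these genes were called lower and 4 higher. Of 3 other genes whose proteins have a BH3-like segment, HUWE1 was lower (-0.24, SE 0.03), BECN1 higher (0.18, SE 0.04), and AMBRA1 did not pass (0.06, SE 0.04) except without resistant replicate 1 (0.10, limma adjusted p = 0.0192). Neither HUWE1 nor BECN1 passed against 1.2-fold or with the fixed dispersion, and BECN1 did not pass with its neighbour median removed.

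**Figure D5:**
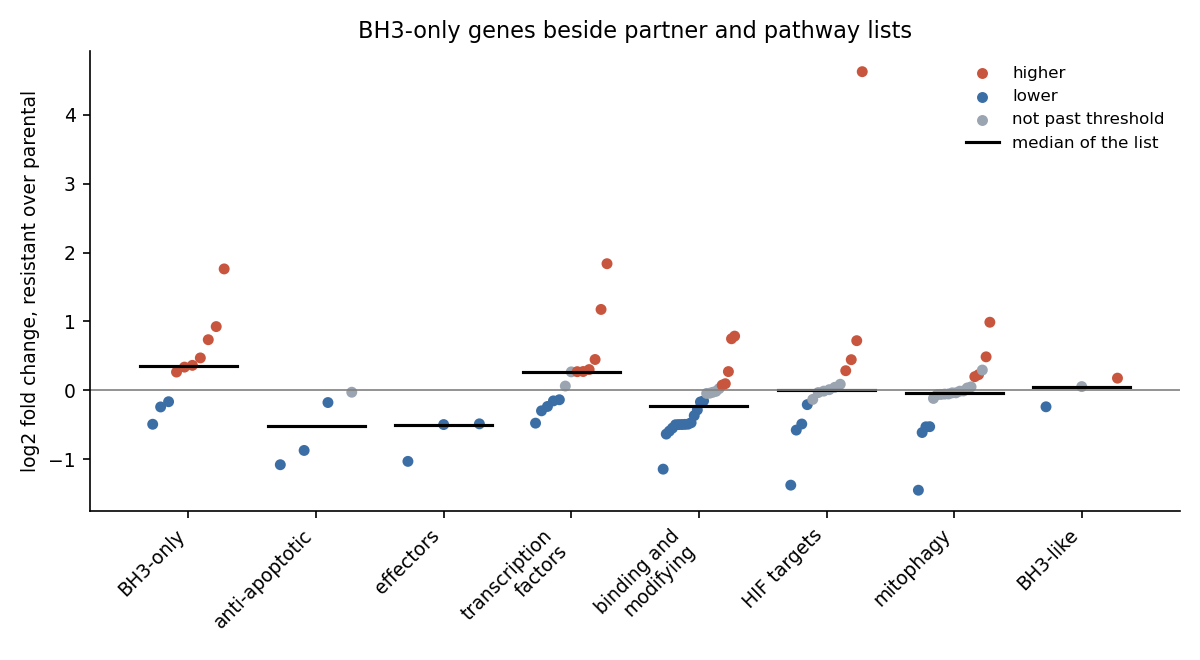
Log2 fold change of each tested gene in the BH3-only list and 7 partner and pathway lists, coloured by limma's call, with the median of each list as a black line. The BH3-only median is 0.35, while the anti-apoptotic and effector genes lie at or below 0.

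Library facts bear on all of these values. The libraries held 58861281 to 67690557 recovered reads over the genes of the table, the 2 libraries of a group differed by more than sampling noise (chi-square per gene 1.60 in the parental and 3.99 in the resistant pair), and counting intervals cover counting error only. Of 9 measured muscle and rhabdomyosarcoma markers, 8 were called higher and 0 lower. Among the higher ones were PAX7 (3.58), ACTC1 (1.49) and DES (1.46). The 1 not past the threshold was MYOD1 (-0.06), at 16588 ± 491 parental and 15949 ± 1041 resistant normalized counts. Its log2 fold change was -0.12 without resistant replicate 2. The summed normalized counts of the 9 markers were 101999 and 102106 in the parental and 198440 and 202878 in the resistant libraries. The 4 epithelial markers summed to 96.7 and 103 in the parental and 171 and 105 in the resistant libraries. Of the endothelial markers TEK alone was measured, at 188 and 210 parental and 1729 and 1690 resistant normalized counts. Of the leukocyte markers CD68 alone was, at 23.2 and 20.9 parental against 6.49 and 7.64 resistant normalized counts. AC016876.2, on the same strand, shares 81.7% of the exonic bases of CD68. PECAM1, CDH5, PTPRC and CD3E were not analysed here. The part of these marker differences in the BH3-only values was not tested.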

How the data were processed

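Polyadenylated RNA of 4 RD libraries was sequenced. Among the tools named by the submitters' processing notes are STAR 2.5.2b, Subread 1.5.2 with featureCounts, bcl2fastq 2.17 and DESeq2, and the build is GRCh38; neither annotation nor strandedness is stated there. The authors deposited a signal column for each library, gene counts scaled by a size factor: 100% of the values were whole multiples of a single step within 0.01. For parental replicate 2 that step was close to 1, a case in which an automatic check does not accept such multiples as proof of reads, and the alternatives on recovered reads rest on it too. The log2 fold changes and p-values of the authors' deposited table were copied for comparison.

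Genes with at least 10 in at least 2 libraries (18330) were fitted as log2(value + 1) with limma 3.58.1 (eBayes with trend, R 4.3.3) on group alone, with Benjamini-Hochberg adjustment at 0.05, and the script was checked on simulated counts. Groups and replicate numbers came from sample titles. Alternatives were edgeR 4.0.16, DESeq2 1.42.0 and limma-voom on recovered reads, pseudocounts of 0.1 and 10, no filter or a minimum of 50, equal totals, a replicate block, each library left out, an edgeR dispersion of 0.01, a 1.2-fold treat test, and subtraction of the median of 20 neighbours. Levels per kilobase use the union of GENCODE 29 exons. Named are the 10 members, all genes of lists of up to 6, the 4 smallest adjusted p of longer lists, and the nearest tested genes; some listed genes and 1 list are not reported here. Members and lists were chosen with earlier results of these data known.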

Additional observations from a re-analysis of the deposited data

How the results depend on the processing

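Over all genes, 6001 were higher and 6270 lower. Requiring a change above 1.2-fold gave 3380 and 3414, and a dispersion fixed at 0.01 gave 4063 and 3880; both settings demand more than the spread of these libraries. In each of these settings 1 of the BH3-only genes was called lower in place of 3. With the median of 20 neighbours removed BNIP3L changed sign, to a log2 fold change of -0.019. With the replicate block 5926 genes were higher and 6218 lower, and among the BH3-only genes only the call of BBC3 changed (limma adjusted p = 0.0507). Replicate differences did not correlate between groups (Pearson r = -0.00397 across 13130 genes, which are not independent replicates), so the numbers are not shown to pair libraries. Leaving out one library gave 6 to 7 BH3-only genes higher and 2 to 3 lower. Equal totals moved the median of all genes from 0.00 to 0.04. Against 1.2-fold 2 mitophagy genes and 1 partner gene were higher, and with the fixed dispersion 2 and 2. Depth limits BIK and HRK, with 37 and 54 parental reads.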
